A study of Mus musculus with 2 samples.

Results

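The genes described here encode the sodium-phosphate, sodium-proton, cation-chloride, bicarbonate, anion and sodium-calcium transporters of the solute carrier families Slc4, Slc8, Slc9, Slc12, Slc20, Slc24, Slc26 and Slc34. They were taken by symbol from the deposited table, and the rule uses no measured value, although the families were picked with earlier results of these data known. Of 52 family symbols, 43 had a row among the 19829 genes of the table, and the other 9 (*Slc12a8*, *Slc4a10*, *Slc26a3*, *Slc26a5*, *Slc26a9*, *Slc8a3*, *Slc24a1*, *Slc24a2* and *Slc24a4*) were not analysed here.

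Messenger RNA was sequenced from kidney tissue of 2 mice, 1 library per group. The library WT+AKI came from a wild-type control littermate and the library TG+AKI from an Inmt transgenic mouse, whose transgene overexpresses *Inmt*, the gene of indolethylamine N-methyltransferase, in proximal tubules. The promoter that drives the transgene was not given in the sources used here, and the sample title of TG+AKI also carries the words conditional knockout. The comparison asked which kidney transcripts beyond *Inmt* differ between the genotypes after injury. Per the study's methods, the mice were male C57BL/6, and both groups received the calcineurin inhibitor voclosporin intraperitoneally at 30 mg/kg per day for 2 weeks between 8 and 10 weeks of age. Both then underwent ischemia of the kidneys for 30 min followed by reperfusion at 14 weeks of age. The kidneys were taken 24 h after reperfusion by the description of the experiment that was sequenced, whereas the general methods give 48 h. Voclosporin is named in the series design, although GEO's treatment field reads as untreated for each sample.

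The kidney tubule takes back most of the filtered salt, bicarbonate and phosphate. In the proximal tubule, sodium-phosphate cotransporters and sodium-proton exchangers of the brush border let sodium in, and a sodium-bicarbonate cotransporter passes bicarbonate out to the blood. The thick ascending limb and the distal convoluted tubule each reclaim sodium chloride through a cation-chloride cotransporter of their own, and the intercalated cells of the collecting duct exchange chloride for bicarbonate.

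Every deposited value was a whole multiple of the value of 1 read, which was 0.0236 in WT+AKI against 0.0302 in TG+AKI, so reads could be counted back. The libraries held 38542764 and 36427421 reads. *Inmt* stood at 10.4 (443 reads) in WT+AKI against 402.8 (13339 reads) in TG+AKI, 38.5-fold higher in the library labelled transgenic. Because each group is a single library, replicate error could not be measured and no p-value is given. Ratios of TG+AKI to WT+AKI carry 95% exact (Clopper-Pearson) intervals from the reads. These intervals cover counting error only, since each group is 1 library. Reads without molecular identifiers are not independent molecules, so the intervals may be too narrow even for that. A gene was compared if its value reached 1 in at least 1 library, which is 42.4 reads in the wild-type library or 33.1 in the transgenic one, and it was counted as changed at 2-fold or more.

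Of the 43 transporter genes, 39 passed this filter. In TG+AKI 8 of them (20.5%) were at least 2-fold higher, where 7.02% of all 14997 genes compared were. Of these 8, *Slc4a5* reached the filter in TG+AKI only. Another 4 (10.3%) were at least 2-fold lower, where 10.5% of all genes were. The remaining 27 changed by less. The median log2 change was 0.35 over the transporters, with a range from -3.06 to 2.82, and -0.02 over all genes compared. In bulk tissue, fewer cells of a type and less RNA per cell cannot be told apart. Scaling both libraries to equal totals moved the median of all genes by -0.28 and brought the transporter median to 0.06. The same 8 genes stayed at least 2-fold higher and the same 4 at least 2-fold lower under that scaling, with *Slc20a2* and *Slc9a5* added to the lower ones.

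**Figure D1:**
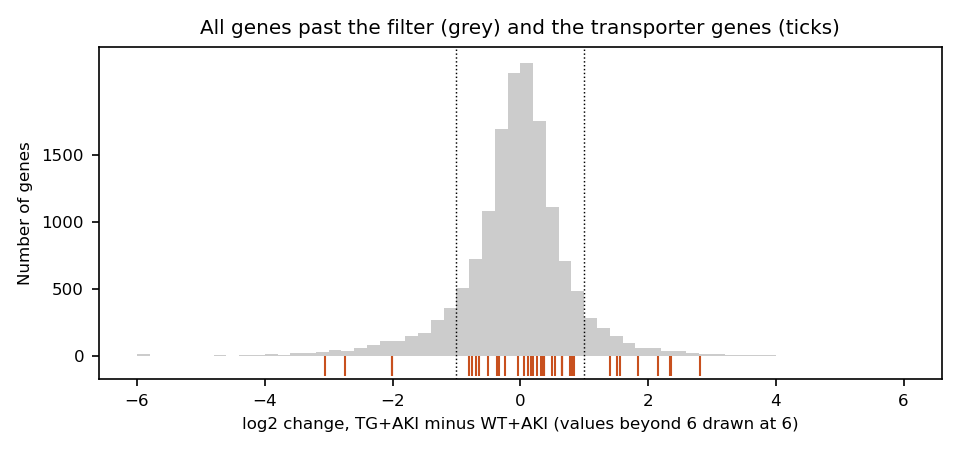
Histogram of log2 changes, TG+AKI minus WT+AKI, over the 14997 genes compared (grey, number of genes on the vertical axis), with 1 tick for each of the 39 transporter genes that passed the filter and dotted lines at 2-fold. The transporter ticks run from -3.06 to 2.82, with 26 above 0 and 13 below.

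**Figure D2:**
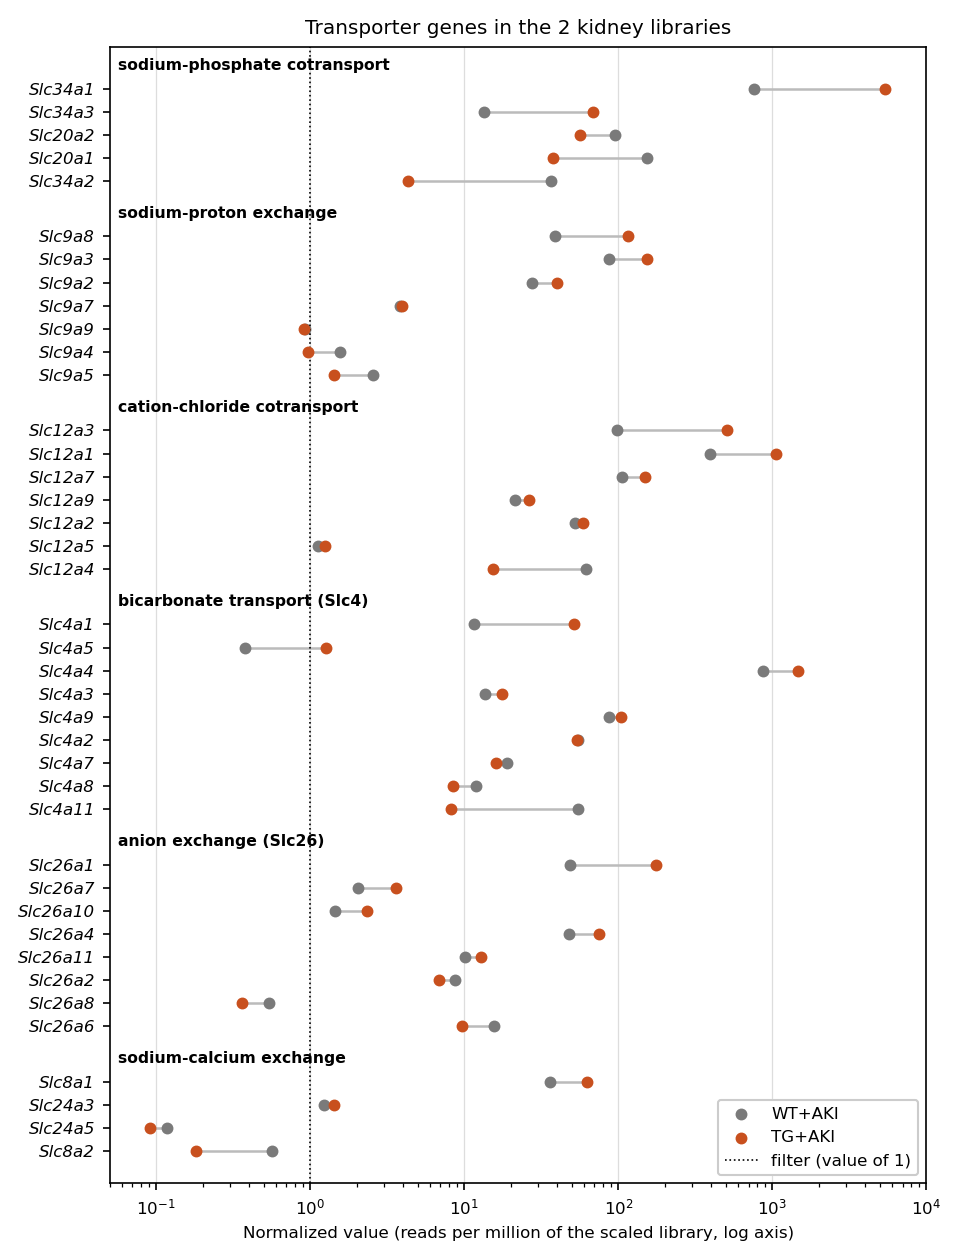
Normalized value of 40 of the 43 transporter genes in WT+AKI (grey) and TG+AKI (orange) on a log axis, grouped by role, with 1 library per group and no error bars. *Slc34a1* lies farthest to the right in TG+AKI at 5396.7, and the dotted line marks the filter at a value of 1.

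The transporters together took 0.374% of the reads of WT+AKI and 0.905% of those of TG+AKI. Their summed value was 3398.8 in WT+AKI against 9956.0 in TG+AKI, a ratio of 2.93. A single gene made up much of this sum. *Slc34a1* held 22.5% of it in WT+AKI against 54.2% in TG+AKI.

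The sodium-phosphate cotransporters moved in opposite directions. Of 5 genes, 2 were higher, 2 were lower and 1 was neither. *Slc34a1* (chr13:55398187-55415592, plus strand) encodes NaPi-IIa and *Slc34a3* (chr2:25228898-25234364, minus strand) encodes NaPi-IIc, both cotransporters of the proximal tubule brush border. *Slc34a2* (chr5:53038081-53071664, plus strand) encodes NaPi-IIb, known from intestine and lung, and *Slc20a1* (chr2:129198764-129211616, plus strand) encodes the widely expressed PiT-1. Gene positions are those of the GENCODE annotation of GRCm38, the assembly of build mm10. The promoters of these 4 genes are shown because they span the full range of change among the transporters, from the highest ratio to the lowest. Each is the RefSeq window of 250 bases before and 50 bases after a transcription start in GRCm38.p6, written 5′ to 3′ on the strand of the gene, with the letters GTTAAT or their reverse complement in capitals. Slc34a1 lies at chr13:55399398-55399697 on the plus strand, Slc34a3 at chr2:25234185-25234484 on the minus strand, Slc34a2 at chr5:53049103-53049402 on the plus strand and the first window of Slc20a1 at chr2:129198523-129198822 on the plus strand.
Slc34a1: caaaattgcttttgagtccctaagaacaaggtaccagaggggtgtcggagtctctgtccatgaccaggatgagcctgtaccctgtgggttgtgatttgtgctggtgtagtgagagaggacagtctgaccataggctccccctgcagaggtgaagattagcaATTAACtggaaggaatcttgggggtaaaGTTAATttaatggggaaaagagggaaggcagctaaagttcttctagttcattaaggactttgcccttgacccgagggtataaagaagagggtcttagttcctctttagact
Slc34a3: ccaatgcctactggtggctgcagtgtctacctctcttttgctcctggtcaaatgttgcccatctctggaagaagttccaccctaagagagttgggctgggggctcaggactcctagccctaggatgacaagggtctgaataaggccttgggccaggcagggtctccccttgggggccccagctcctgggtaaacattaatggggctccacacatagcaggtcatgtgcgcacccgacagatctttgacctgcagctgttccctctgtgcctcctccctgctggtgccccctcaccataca
Slc34a2: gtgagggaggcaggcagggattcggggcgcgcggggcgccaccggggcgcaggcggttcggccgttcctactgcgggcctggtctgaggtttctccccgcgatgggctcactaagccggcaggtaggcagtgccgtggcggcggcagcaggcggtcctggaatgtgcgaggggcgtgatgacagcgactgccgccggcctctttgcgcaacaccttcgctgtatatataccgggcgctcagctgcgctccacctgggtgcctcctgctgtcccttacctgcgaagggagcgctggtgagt
Slc20a1: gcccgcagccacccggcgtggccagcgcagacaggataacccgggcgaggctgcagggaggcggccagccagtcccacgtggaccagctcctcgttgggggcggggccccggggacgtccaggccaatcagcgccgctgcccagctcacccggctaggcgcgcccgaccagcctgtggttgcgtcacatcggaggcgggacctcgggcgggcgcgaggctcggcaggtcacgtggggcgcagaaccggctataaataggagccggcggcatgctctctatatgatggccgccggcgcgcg

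The windows differ in base composition, with 46.7% G and C in *Slc34a1*, 57.7% in *Slc34a3*, 68.7% in *Slc34a2* and 73% in *Slc20a1*. The half-site GTTAAT of HNF1, a transcription factor of tubule epithelium, was searched on both strands. *Slc34a1* held it 2 times, with first bases at -61 on the plus strand and -89 on the minus strand, counted from the RefSeq start. It was the only one of the 30 transporter genes with a window in the table to hold these letters. They thus stood in 1 of the 37 transporter windows (2.7%), where 7.1% of all 32851 windows held them. The AP-1 letters TGANTCA stood in 7.81% of all windows and in 4 transporter windows (10.8%), of *Slc12a5*, *Slc24a5*, *Slc26a1* and *Slc9a9*. The HNF4 letters CAAAGTCCA (0.475% of all windows) and the estrogen-related receptor letters TCAAGGTCA (0.423%) stood in no transporter window. No motif overlapped another, and a match of letters is a description, not a site shown to be used.

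*Slc34a1* had a normalized value of 764.5 (32412 reads) in WT+AKI against 5396.7 (178720 reads) in TG+AKI, a ratio of 7.06 (6.98 to 7.14). *Slc34a3* had 13.4 (567 reads) and 68.8 (2277 reads), a ratio of 5.14 (4.69 to 5.65). Both of these genes were thus far above their counting error in TG+AKI. *Slc34a2* was 8.53-fold lower (7.18 to 10.2) in TG+AKI, at 36.6 (1550 reads) in WT+AKI against 4.29 (142 reads) in TG+AKI. *Slc20a1* was 4.04-fold lower (3.81 to 4.3), at 153.4 (6504 reads) and 37.9 (1256 reads). The remaining gene, *Slc20a2*, encodes PiT-2, a widely expressed relative of PiT-1 that is also known from the proximal tubule brush border. It stood at 94.9 (4025 reads) and 56.6 (1874 reads), 1.68-fold lower (1.59 to 1.77), which is short of the 2-fold line. Part of the *Slc34a1* transcript lies opposite *Pfn3*, with which it shares 11.5% of its words of 100 bases, and *Slc20a1* shares 8.18% with antisense genes. Whether the counting used the strand was not given in the sources used here.

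Per kilobase of the longest annotated transcript, the scale on which levels of different genes can be set side by side, the 5 cotransporters summed to 279.7 in WT+AKI against 1414.8 in TG+AKI. *Slc34a1* made up 68.6% of that sum in WT+AKI against 95.8% in TG+AKI. *Slc20a1* made up 16.5% and 0.808%, and *Slc20a2* 9.52% and 1.12%. Both shares of the Slc20 pair were thus smaller in TG+AKI. *Slc34a2* went from 3.13% to 0.0726%, whereas the share of *Slc34a3* was 2.19% and 2.23%. The level of *Slc34a1* per kilobase was 4.15 times that of *Slc20a1* in WT+AKI against 118.5 times in TG+AKI. These shares depend on the length used, most of all for *Slc20a2*. Its longest annotated transcript has 3566 bases, whereas the median over its 3 transcripts is only 490. On the median length of the annotated transcripts, chosen after seeing the data, *Slc20a2* made up 33.6% and 4.86%, *Slc20a1* 8.26% and 0.495%, *Slc34a3* 1.06% and 1.32%, and *Slc34a1* 54.5% and 93.3%. The level of *Slc34a1* was then 6.59 and 188.3 times that of *Slc20a1*.

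**Figure D3:**
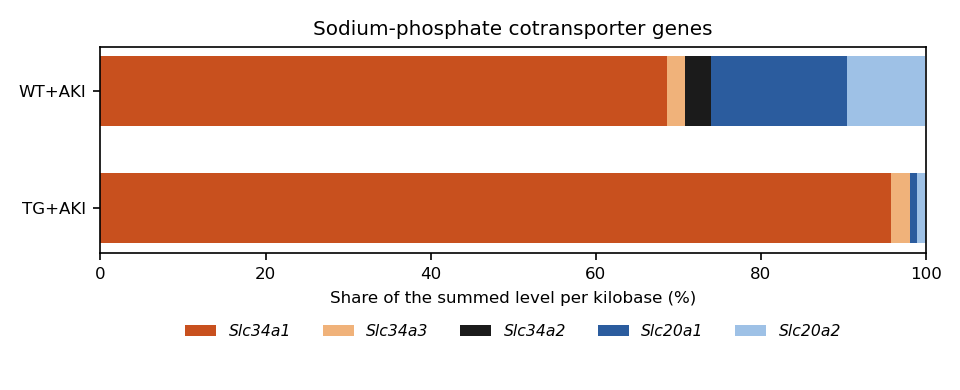
Share of each sodium-phosphate cotransporter gene in their summed level per kilobase of the longest transcript (horizontal axis, percent), with 1 bar for WT+AKI and 1 for TG+AKI. *Slc34a1* fills 68.6% of the WT+AKI bar and 95.8% of the TG+AKI bar.

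The genes known to act on renal phosphate handling were also measured. Of 7 genes of phosphate control, 2 were higher, 1 was lower and 4 were neither. *Kl*, the gene of the FGF23 co-receptor klotho, stood at 139.7 and 638.2, a ratio of 4.57 (4.44 to 4.7). *Pth1r*, the parathyroid hormone receptor, stood at 181.7 and 382.3, a ratio of 2.1 (2.05 to 2.16). *Cyp24a1*, which breaks down active vitamin D, was 3.24-fold lower (3.14 to 3.35), at 454.4 and 140.2. Among 4 genes of scaffold proteins that anchor NaPi-IIa and NHE3 in the brush border, *Pdzk1* was higher at 430.7 and 1081.7, a ratio of 2.51 (2.47 to 2.56), and the other 3 changed by less than 2-fold.

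Among the sodium-proton exchangers, 1 of the 8 that passed the filter was higher and none was lower. *Slc9a8* (chr2:167421712-167477000) encodes NHE8, an exchanger of Golgi and apical membranes. It stood at 38.7 (1642 reads) in WT+AKI against 114.7 (3799 reads) in TG+AKI, a ratio of 2.96 (2.79 to 3.14). *Slc9a3*, the gene of NHE3, the apical exchanger of the proximal tubule, stood at 86.6 (3671 reads) and 154.6 (5120 reads), a ratio of 1.79 (1.71 to 1.86). Between the libraries, the NHE8 gene thus differed by a larger factor than the NHE3 gene. Their intervals did not overlap, but these cover counting error only. Per kilobase, *Slc9a3* was above *Slc9a8* in both libraries, at 16.9 against 8.57 in WT+AKI, and at 30.2 against 25.4 in TG+AKI. That gap depends on the length used, at 1.97 and 1.19 times here and 3.82 and 2.31 times on the median transcript length. *Slc9a7*, of the trans-Golgi network, had a ratio of 1.04 (0.816 to 1.31), which turned below 1 with equal column totals. *Slc9a2* had a ratio of 1.45 (1.34 to 1.57), and *Slc9a4* had 66 and 32 reads with a ratio of 0.621 (0.394 to 0.961). *Slc9a5*, mainly of brain, had 109 and 47 reads and was 1.81-fold lower (1.28 to 2.61). The endosomal *Slc9a9* was below the filter at 39 and 30 reads. None of 3 genes of the sodium pump, which keeps cell sodium low for these carriers, reached 2-fold, with ratios of 1.11 for *Atp1b1* and 1.8 for *Fxyd2*.

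Among the 8 cation-chloride cotransporters measured, 2 were higher, 1 was lower and 5 were neither. *Slc12a3* (chr8:94329201-94366214) encodes NCC, the thiazide-sensitive cotransporter of the distal convoluted tubule. It stood at 98.5 (4177 reads) in WT+AKI against 507.0 (16791 reads) in TG+AKI, a ratio of 5.15 (4.97 to 5.32). *Slc12a1* (chr2:125152505-125230002) encodes NKCC2, the apical cotransporter of the thick ascending limb. It stood at 395.3 (16759 reads) and 1048.5 (34724 reads), a ratio of 2.65 (2.6 to 2.7). Both salt-reclaiming genes were thus higher, the distal one by the larger factor. Per kilobase, the level of *Slc12a1* was 3.65 times that of *Slc12a3* in WT+AKI against 1.88 times in TG+AKI. On the median transcript length, it was 2.85 and 1.47 times.

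The potassium-chloride cotransporters, which carry salt out of the cell, did not move as a group. *Slc12a4* (chr8:105943590-105966097), the gene of the widely expressed KCC1, was 4.05-fold lower (3.68 to 4.46) in TG+AKI, at 61.9 (2626 reads) and 15.3 (507 reads). *Slc12a7*, the gene of KCC4, stood at 105.8 (4486 reads) and 148.7 (4924 reads), a ratio of 1.41 (1.35 to 1.46). Per kilobase, *Slc12a7* stood at 1.27 times *Slc12a4* in WT+AKI, and at 7.2 times in TG+AKI. *Slc12a2*, the gene of the basolateral NKCC1, had a ratio of 1.13 (1.06 to 1.2), which turned below 1 with equal column totals. *Slc12a9*, of less settled function, had a ratio of 1.25 (1.13 to 1.37). The neuronal *Slc12a5* had 48 and 41 reads and a ratio of 1.09 (0.703 to 1.69), which also turned below 1 there.

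Of 10 genes of the WNK-SPAK pathway, which switches NCC and NKCC2 on by phosphorylation, 1 was higher and none was lower. It was *Klhl3*, the adaptor that marks WNK kinases for breakdown, at 17.2 and 56.9 with a ratio of 3.3 (3.03 to 3.6). Of 6 genes for potassium recycling and chloride exit, *Bsnd*, the barttin subunit of chloride channels, had a ratio of 4.02 (3.67 to 4.41) and *Kcnj1*, the potassium channel ROMK, had 2.13 (2.03 to 2.24). The other 4 were neither.

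**Figure D4:**
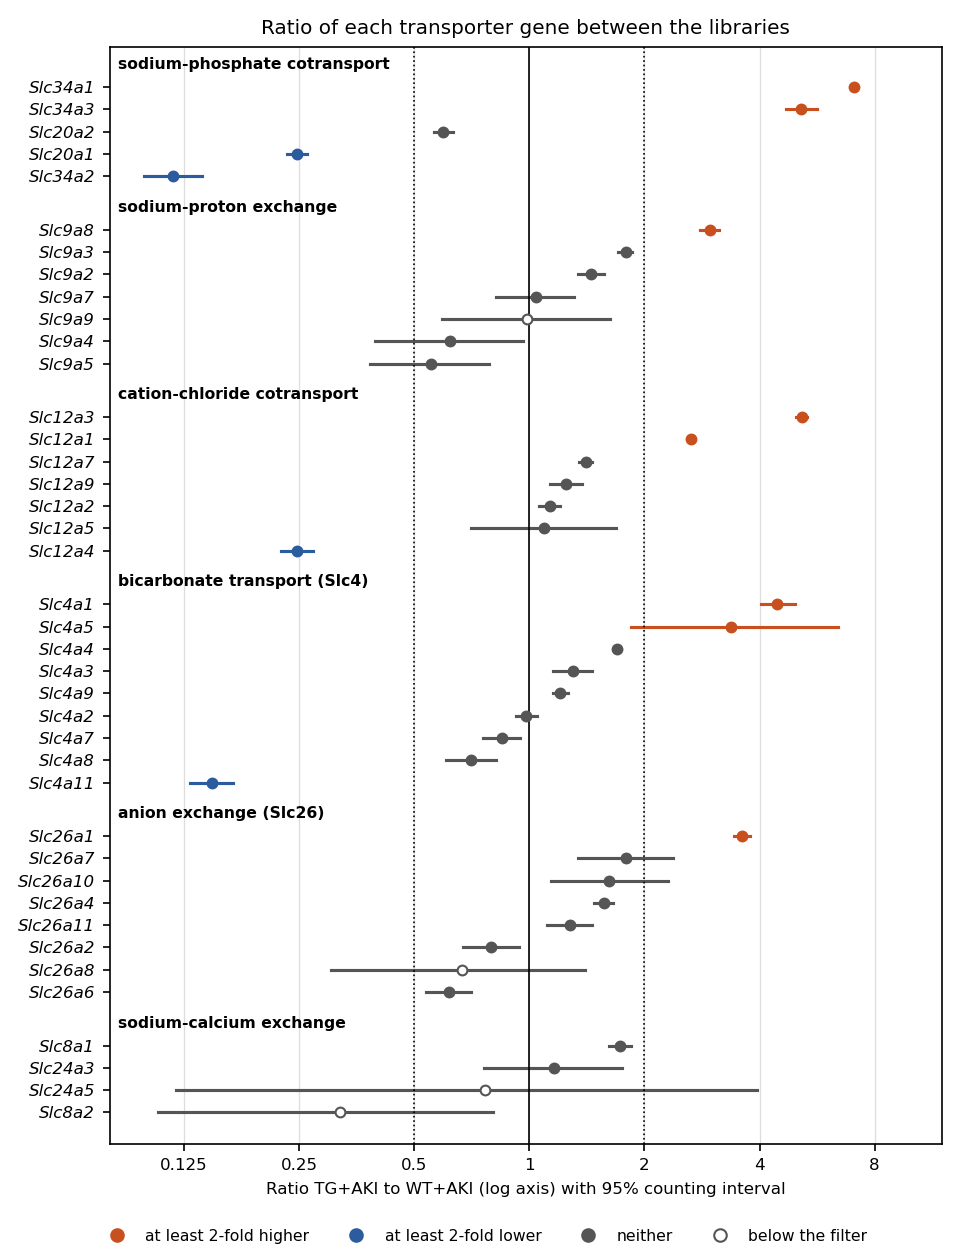
Ratio of TG+AKI to WT+AKI for 40 of the 43 transporter genes on a log axis, with bars for the 95% counting interval, a solid line at a ratio of 1 and dotted lines at 2-fold in either direction. *Slc34a1* has the highest ratio at 7.06 and *Slc34a2* the lowest at 0.117, and the 4 open points are the genes below the filter.

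Of the 9 Slc4 genes measured, 2 were higher, 1 was lower and 6 were neither. *Slc4a1* (chr11:102348824-102366203) encodes AE1, or band 3, the chloride-bicarbonate exchanger of red cells and of type A intercalated cells. It stood at 11.5 (488 reads) in WT+AKI against 51.3 (1698 reads) in TG+AKI, a ratio of 4.45 (4.03 to 4.94). Of 9 red cell markers, 6 had a row, with few reads in both libraries. Their summed value was 3.63 and 6.52, a ratio of 1.8, and the highest, *Hbb-bs*, had 46 and 66 reads. Of these 6, 3 passed the filter, all with log2 changes above 0, from 0.15 to 0.97. The 3 markers without a row, *Rhag* among them, could not be measured. The smallest count in each library was 1 read, so a missing row need not mean that no reads were found. The part of red cells in the *Slc4a1* difference was not tested. *Slc4a5*, the gene of the sodium-bicarbonate cotransporter NBCe2 (chr6:83219828-83304945), rested on few reads, with 0.377 (16 reads) and 1.27 (42 reads) and a ratio of 3.36 (1.85 to 6.4). It reached the filter in TG+AKI only, and its interval reached below 2-fold.

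*Slc4a4* encodes NBCe1, the basolateral sodium-bicarbonate cotransporter of the proximal tubule. It stood at 865.6 (36697 reads) and 1471.1 (48716 reads), a ratio of 1.7 (1.68 to 1.72), and was not counted as changed. Per kilobase, *Slc34a1* was 1.76 times *Slc4a4* in WT+AKI against 7.3 times in TG+AKI. On the median transcript length, it was 1.19 and 4.93 times. Both ratios between the libraries were above 1, that of the apical phosphate gene larger than that of the basolateral bicarbonate gene of the same segment. *Slc4a11* (chr2:130684113-130697519), a family member known from the cornea that carries no bicarbonate, was 6.74-fold lower (5.94 to 7.67), at 55 (2330 reads) and 8.15 (270 reads). *Slc4a9*, the gene of AE4 in type B intercalated cells, stood at 86.8 (3681 reads) and 104.2 (3451 reads), a ratio of 1.2 (1.15 to 1.26) that turned below 1 with equal column totals. *Slc4a2*, the gene of the widely expressed AE2, had a ratio of 0.983 (0.923 to 1.05), and the remaining 3, *Slc4a3*, *Slc4a7* and *Slc4a8*, had ratios of 1.3, 0.847 and 0.703.

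Bicarbonate for these carriers comes from carbonic anhydrases. Of 7 genes of bicarbonate supply, 4 were higher and none was lower. *Car14* and *Car4*, membrane-bound carbonic anhydrases, had ratios of 8.51 (7.85 to 9.23) and 5.66 (5.26 to 6.1). *Car12* had 2.31 (2.24 to 2.38) and *Ahcyl2*, a relative of the NBCe1 activator IRBIT, had 2.28 (2.21 to 2.35). The cytosolic *Car2* had a ratio of 1.28 (1.24 to 1.31).

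Of the 7 Slc26 anion exchangers that passed the filter, 1 was higher and none was lower. *Slc26a1* (chr5:108669878-108675569) encodes SAT1, the basolateral sulfate-anion exchanger of the proximal tubule. It stood at 48.7 (2066 reads) in WT+AKI against 175.1 (5799 reads) in TG+AKI, a ratio of 3.59 (3.42 to 3.78). *Slc26a6*, the gene of the apical anion exchanger CFEX of the same segment, lay on the other side, at 15.6 (661 reads) and 9.6 (318 reads), 1.62-fold lower (1.42 to 1.86). Pendrin, the apical exchanger of type B intercalated cells, is encoded by *Slc26a4*, which had a ratio of 1.57 (1.48 to 1.66). *Slc26a7*, of intercalated cells, had 86 and 120 reads and a ratio of 1.79 (1.34 to 2.38). The sulfate transporter genes *Slc26a2* and *Slc26a11* had ratios of 0.795 and 1.28, and *Slc26a10*, which shares 20.8% of its words with *B4galnt1*, had 1.62. The germ cell gene *Slc26a8* was below the filter at 23 and 12 reads.

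None of the sodium-calcium exchanger genes passed both the filter and the 2-fold line. *Slc8a1*, the gene of NCX1, which moves calcium out of distal convoluted tubule cells, stood at 36.1 (1532 reads) and 62.6 (2074 reads), a ratio of 1.73 (1.62 to 1.85). *Slc24a3* had 52 and 47 reads and a ratio of 1.16 (0.763 to 1.75), and its sign turned with equal column totals. *Slc8a2*, mainly of brain, was below the filter at 24 and 6 reads. *Slc24a5*, of pigment cells, had 5 reads in WT+AKI against 3 in TG+AKI, the floor of 3 reads, with a ratio of 0.768 (0.119 to 3.95), and a difference was not detectable at this depth. No transporter gene lay within 0.1 on the log2 scale of the 2-fold line.

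Ordered by mean level per kilobase, the first 10 transporter genes were *Slc34a1*, *Slc12a1*, *Slc4a4*, *Slc12a3*, *Slc4a9*, *Slc26a1*, *Slc20a1*, *Slc12a7*, *Slc9a3* and *Slc20a2*. The same 10 genes led when the median transcript length was used. *Slc34a1* ranked 1 in both libraries, at 191.9 per kilobase in WT+AKI against 1354.9 in TG+AKI. *Slc20a1* ranked 4 in WT+AKI against 15 in TG+AKI, and *Slc4a11* ranked 9 and 25. *Slc34a3* ranked 22 and 7, and *Slc9a8* ranked 18 and 10. *Slc12a3* also stood higher in the order of TG+AKI, at 4 after 7, and *Slc20a2* lower, at 13 after 6.

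The transporters were set beside marker genes of the segments they are known from. All 9 proximal tubule markers were at least 2-fold higher in TG+AKI, with ratios from 2.3 (*Slc5a2*) to 10.2 (*Miox*) and a summed value of 2584.8 and 10840.6. *Slc34a1*, *Slc34a3* and *Slc26a1* lay inside that range of ratios. *Slc9a3*, *Slc4a4* and *Slc26a6* lay below it. *Slc20a2* and *Slc9a8*, not assigned to a single segment here, had ratios of 0.596, below that range, and 2.96, inside it. Of 6 thick ascending limb markers 3 were higher, with a summed value of 1599.6 and 2321.9. The other 3 of these 6 did not reach 2-fold, with *Umod* at 1.35 and *Cldn16* at 0.909 among them. The 2.65 of *Slc12a1* was exceeded by the 4.02 of *Bsnd* alone, and *Kcnj1* had 2.13. Of the 3 higher markers, *Bsnd* and *Kcnj1* were also in the list for potassium recycling and chloride exit. Of 5 distal convoluted tubule markers 3 were higher, with a summed value of 81.2 and 241.1. The 5.15 of *Slc12a3* lay between *Tmem52b* at 3.57 and *Pvalb* at 27.6 (15.5 to 54.2). *Pvalb* rested on 12 reads in WT+AKI against 259 in TG+AKI, and *Slc12a3* lay above every other marker of this segment. Of 9 intercalated cell markers 1 was higher, with a summed value of 246.4 and 347.8. *Rhbg* and *Atp6v1b1* fell just short of the 2-fold line, with log2 changes of 0.99 and 0.98. The highest of the 9 ratios was 2.61 for *Rhcg*, so *Slc4a1* lay above all 9. *Slc26a4*, *Slc26a7*, *Slc4a9* and *Slc4a8* lay inside the range of the 9. Of 7 principal cell markers 1 was higher, *Avpr2* with a ratio of 2.11.

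Of the 25 measured transporter genes tied to no single segment, 4 (16%) were lower and 2 (8%) were higher. Of all genes compared, 10.5% were lower and 7.02% higher. The 25 held all 4 lower transporters and had a median log2 change of 0.12. Markers of injury and immune cells moved in the same direction as the 4 lower genes. All 7 injured tubule markers were lower in TG+AKI, with a summed value of 12648.7 and 719.6, and 6 of the 8 immune cell markers past the filter were lower, with a sum of 156.5 and 66.5 over the 9 listed. Of 8 endothelial and stromal markers 1 was lower, *Col1a1* by 4.31-fold, with a sum of 534.4 and 418.0. The part of these shifts, and of those of the segment markers, in the transporter differences was not tested. No neuron marker passed the filter (2 of 4 had a row, summing to 0.519 and 0.453), and 1 of 7 male germ cell markers did (3 had a row, summing to 1.65 and 1.66).

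**Figure D5:**
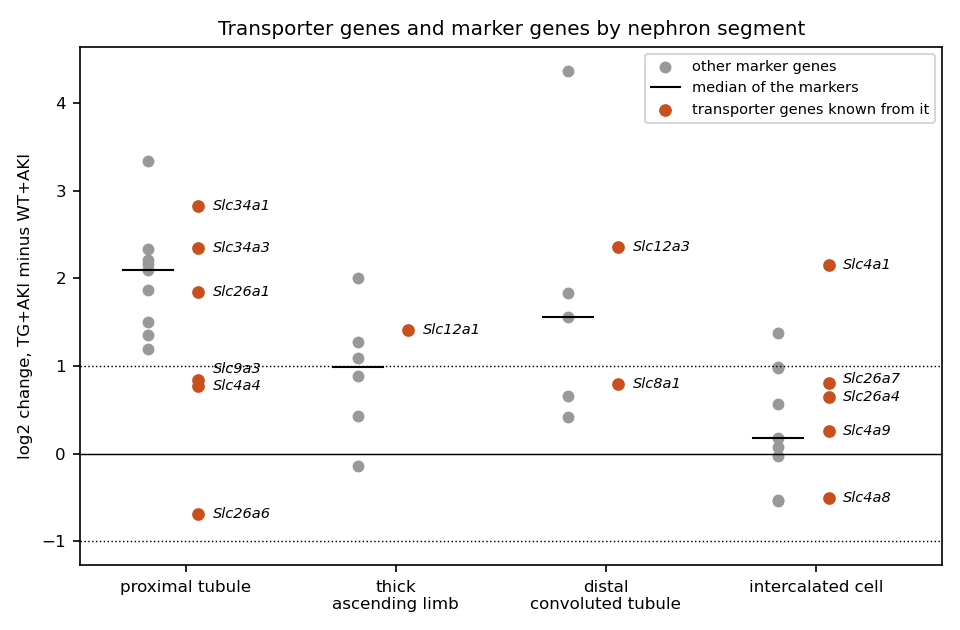
Log2 change, TG+AKI minus WT+AKI, of genes in 4 parts of the nephron, with dotted lines at 2-fold. Marker genes are grey, with a bar at their median, and transporter genes assigned to the same segment are orange. *Slc9a3*, *Slc4a4* and *Slc26a6* lie below all 9 proximal tubule markers, and *Slc4a1* lies above all 9 intercalated cell markers.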

How the data were processed

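The deposited table gives 1 normalized signal value per gene and library, which the authors made from gene read counts divided by a library scaling factor. The submitters' processing notes name STAR 2.7.3a, HTSeq, DESeq2, edgeR, Cufflinks 2.2.1, FastQC and build mm10. The annotation and the strand setting of the counting were not given in the sources used here. In both libraries 100% of values came within 0.01 of a whole number of reads. Changes were computed as log2(value + 0.1), which understates those of low genes, and ratios as plain ratios of values. Of 14997 genes compared, 3745 had a 95% counting interval that included 1, as had 4 of the 39 transporters. This compares 2 libraries and not the conditions, and stands in place of a count model. Genes were matched to GENCODE transcripts of GRCm38 for positions, length and shared words, and 30 of 43 transporters to promoter windows credited to RefSeq (GRCm38.p6). Members, gene lists and rules were chosen with earlier results of these data known. Values are given for every transporter that changed 2-fold and for the 10 highest per kilobase, and others by role. Other pseudocounts, filters and scalings were tried, and protein sequences were not analysed here. The code was tested on simulated data and used pandas 2.3.3, numpy 2.4.6, scipy 1.17.1 and matplotlib 3.10.9 under Python 3.11.15. Some genes of these families and lists are counted but not reported here by name.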

Additional observations from a re-analysis of the deposited data

How the results depend on the processing

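The counts of 8 higher and 4 lower transporters, with the same genes, held without a pseudocount, with either median scaling and where the counting interval had also to exclude 1. *Slc4a5* was lost with a pseudocount of 1, a filter of 10 or a whole interval beyond 2-fold, and *Slc8a2* joined the lower genes without a filter. With a filter of 10, 10294 genes were compared, so 625 of all genes were higher and 784 lower, against 1053 and 1578. With equal column totals, 687 of all genes were higher and 2346 lower, so 22.7% of changed genes were higher instead of 40%, and among transporters 57.1% instead of 66.7%, with a transporter median of 0.06 instead of 0.35. Setting the median ratio to 1 among genes with values of 100 or more moved all genes by -0.15 and gave 30.3%. Of 43 transporters, *Slc12a2*, *Slc12a5*, *Slc24a3*, *Slc4a9* and *Slc9a7* changed sign with equal totals, and *Slc12a5* and *Slc9a7* also with the median ratio. No called transporter changed sign. No paired analysis was possible because each group had 1 library. No replicate could be left out for the same reason. On the median transcript length, added after seeing the data, the share of *Slc20a2* among the phosphate cotransporters was 33.6% in WT+AKI and 4.86% in TG+AKI, instead of 9.52% and 1.12%, and the cause was the shorter length. Depth limits *Slc4a5* and the genes below the filter.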
